A study of Homo sapiens with 44 samples.

Results

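Gene expression was compared 3 and 6 h after release from a thymidine block, while the cells copied their DNA, in IMR5/75 cells with and without an induced hairpin against MYCN. IMR5/75 is a human neuroblastoma cell line with many copies of MYCN, and all libraries came from one derivative of it that carries a short hairpin RNA (shRNA) against MYCN under tetracycline control. The Tet plus cells received tetracycline, which switches the shRNA on, and the Tet minus cells did not. All cells, in both arms, were first held in thymidine for 18 h, which stops the cycle where S phase begins, and were then washed free of it. The members were the 4 Tet plus libraries (2 at 3 h and 2 at 6 h) and the 4 Tet minus libraries (2 at 3 h and 2 at 6 h), 8 of the 44 libraries in the series, which runs from 0 to 22 h. No library used here had tetracycline without this hairpin or with a control hairpin, so what tetracycline does by itself, and what the hairpin does beyond MYCN, cannot be told apart from the loss of MYCN. How many clones the line holds is not given in the sources used here.

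MYCN is a transcription factor of the MYC family, which binds DNA with its partner MAX, most often at the E-box CACGTG, and drives genes of growth such as those that build ribosomes and nucleotides. MXD proteins compete with MYC proteins for MAX. In S phase the replicative helicase, loaded on origins in the preceding G1, opens the DNA, polymerases copy both strands, and histones and deoxynucleotides are made in bulk; in neuroblastoma, amplified MYCN marks aggressive disease.

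Gene counts per library ran between 17.9 M and 21.8 M for Tet plus and between 13.0 M and 22.9 M for Tet minus. Between 15840 and 16366 genes were detected. ERCC spike-in transcripts took 0.736% to 3.90% of all counts with Tet and 0.806% to 3.00% without it. Small nucleolar RNAs took 0.294% to 0.651% of gene counts in Tet plus and 0.332% to 0.630% in Tet minus cells. Arms of a replicate shared a sequencing lane (lane 8 for replicate 1, lane 4 for replicate 2). Single libraries are called by the names in the labels, where TetP is Tet plus and TetM is Tet minus. Noradrenergic neuroblastoma markers, 28 of 28 detected, summed to 2828 to 4007 CPM (counts scaled to library size) in Tet plus cells. In Tet minus cells they summed to 2522 to 3483 CPM. Of the other cell types, mesenchymal markers (16 of 16 detected) summed to 837 to 1488 CPM in Tet plus and 853 to 1506 CPM in Tet minus. Schwann cell markers (8 of 10) summed to 21.5 to 25.7 CPM in Tet plus and 17.9 to 23.2 CPM in Tet minus, with SOX10 and CDH19 at 0. Epithelial markers (7 of 10) summed to 1.81 to 2.25 CPM in Tet plus and 0.867 to 1.59 CPM in Tet minus, with KRT14, KRT19 and ESRP1 at 0. Leukocyte markers (6 of 8) summed to 2.59 to 3.31 CPM in Tet plus and 2.69 to 3.56 CPM in Tet minus, with CD3E and HBB at 0, and endothelial markers (5 of 5) to 2.00 to 3.04 CPM in Tet plus and 0.902 to 1.39 CPM in Tet minus.

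The course of S phase and mitosis genes bears on the S phase label. Replication-dependent histone genes, whose transcripts accumulate while DNA is copied, had a mean log2 CPM of 5.85 in Tet plus and 5.90 in Tet minus cells at 0 h. They had 7.88 in Tet plus and 8.27 in Tet minus cells at 3 h, and 7.45 in Tet plus and 7.48 in Tet minus cells at 6 h. The 3 h means were the highest of the 7 times from 0 to 14 h in each arm. Genes of mitosis had a mean log2 CPM of 6.55 in Tet plus and 6.57 in Tet minus cells at 3 h and of 7.23 in Tet plus and 7.51 in Tet minus cells at 6 h, below their highest values, 7.91 in Tet plus cells at 10 h and 7.92 in Tet minus cells at 8 h. At 6 h histone transcripts were still above their 0 h level while mitotic transcripts already exceeded theirs, in both arms.

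**Figure D1:**
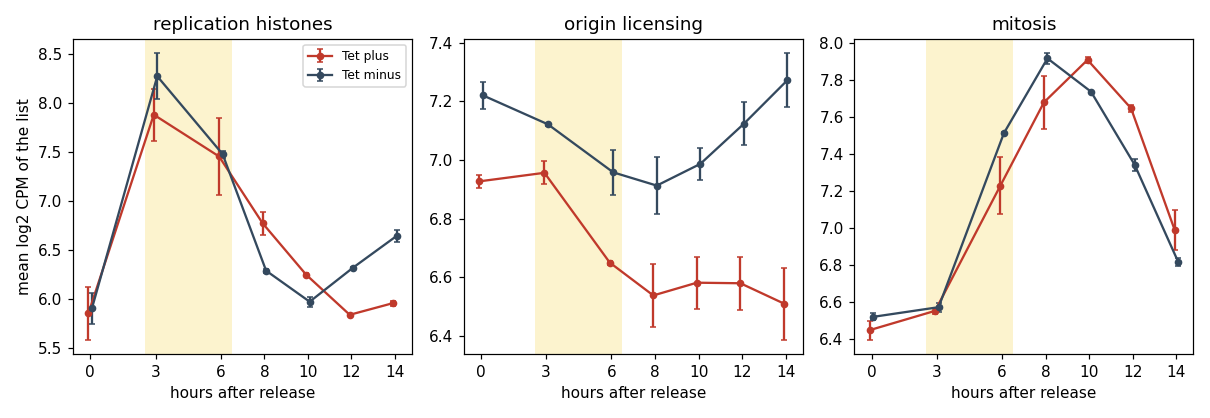
Mean log2 CPM of 41 replication-dependent histone genes, 18 origin licensing genes and 35 mitosis genes against hours after release, in Tet plus (red) and Tet minus (dark) cells; points are means of 2 libraries, bars run from the lower to the higher library, and the shaded span marks 3 and 6 h. Histone transcripts were highest at 3 h in each arm, and mitosis transcripts were highest at 10 h in Tet plus and at 8 h in Tet minus cells.

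MYCN itself was lower with the shRNA, by a modest margin, and its antagonists MXD4 and MXD1 were higher. MYCN had 1253 and 1049.9 CPM at 3 h and 1003 and 1006 CPM at 6 h in Tet plus cells. MYCN in Tet minus cells had 1362 and 1437 CPM at 3 h and 1375 and 1203 CPM at 6 h. Each Tet plus library lay below the Tet minus library of its own time and replicate, but the arms overlapped across pairs, the highest Tet plus library (3 h, replicate 1) standing above the lowest Tet minus library (6 h, replicate 2). Its mean was 1078 ± 119 CPM with tetracycline, against 1344 ± 99.7 CPM without it (SD, n = 4 each, over 2 times). MYCN fell by 0.32 on the log2 scale (SE 0.0977, adjusted p = 0.0404). The p-values are from edgeR (quasi-likelihood, Benjamini-Hochberg) with time and replicate as covariates, here and throughout. Without the replicate term its adjusted p was 0.0963, and it was over 0.05 without any of 6 of the 8 libraries (0.0531 without TetP_6h_rep2, 0.0714 without TetP_3h_rep1, 0.0741 without TetM_3h_rep2, 0.0911 without TetP_3h_rep2, 0.139 without TetM_6h_rep1 and 0.165 without TetP_6h_rep1). With ERCC scaling the MYCN difference was -0.03. In such bulk samples fewer cells with the transcript and less of it per cell cannot be told apart. The strand setting of the counting is not given, so reads of MYCN and of its antisense partner MYCNOS cannot be told apart.

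MXD4 had 159.7 and 161 CPM at 3 h and 104 and 106 CPM at 6 h in Tet plus cells. MXD4 in Tet minus cells had 95.03 and 113 CPM at 3 h and 60.5 and 61.8 CPM at 6 h. At each time both Tet plus libraries exceeded both Tet minus libraries, and MXD4 rose by 0.70 (SE 0.0857, adjusted p = 0.000665). MXD1 had 17.99 and 19.4 CPM at 3 h and 16.98 and 20.98 CPM at 6 h in Tet plus cells. MXD1 in Tet minus cells had 12.4 and 14.9 CPM at 3 h and 11.7 and 13.1 CPM at 6 h. All Tet plus libraries lay above all Tet minus libraries, and MXD1 rose by 0.54 (SE 0.109, adjusted p = 0.00707). Of the 13 network members tested, 2 rose and 1 fell, against 18.6% of all genes tested that passed in either direction. MAX, the obligate partner, had a log2 fold change of -0.16 (adjusted p = 0.338), and MYC, at 0.427 to 1.30 CPM in Tet plus and 0.183 to 0.631 CPM in Tet minus cells, one of 0.64 (adjusted p = 0.173).

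**Figure D2:**
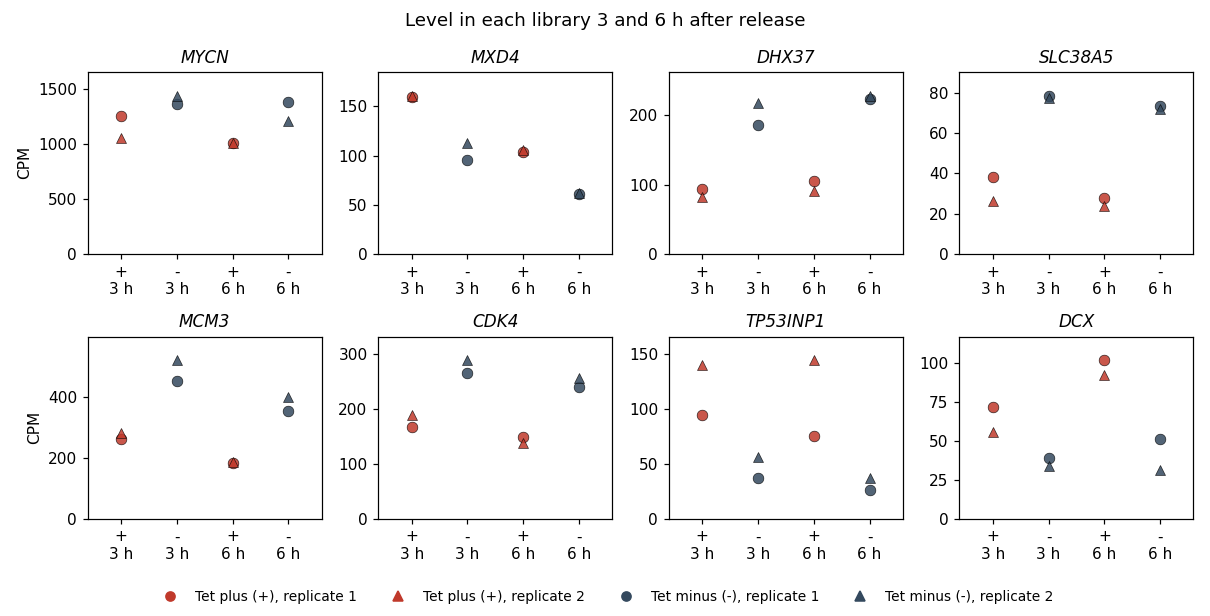
CPM of 8 genes in each of the 8 libraries, Tet plus (red, +) left of Tet minus (dark, -) at 3 h and at 6 h, with circles for replicate 1 and triangles for replicate 2. DHX37, SLC38A5, MCM3 and CDK4 were lower and TP53INP1 and DCX higher in all 4 Tet plus libraries than in any Tet minus library, while the arms overlapped for MYCN and MXD4.

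Across the transcriptome, 2592 of 13937 genes tested (18.6%) differed between the arms in S phase, 1311 higher (9.41%) and 1281 lower (9.19%) in Tet plus cells, most of them by less than 2-fold. At least 2-fold changes were seen in 111 genes that rose and 48 that fell. Of the 2592, 2537 had the same sign in 4 of 4 pairs of time and replicate, and in 1406 all 4 libraries of one arm lay beyond all 4 of the other (681 higher and 725 lower), against 6.67% of all genes tested with all Tet plus libraries above and 6.64% with all below. The 2592 were chosen by the average over these same pairs, which favours both kinds of agreement. The submitters call the 2 libraries of a group biological replicates. The replicate term takes out the difference between replicate 1 and 2 that the groups share. The p-values therefore measure the spread left after arm, time and replicate (4 residual degrees of freedom), not the whole spread between the 2 libraries. Without the replicate term 839 genes passed. The count was 1237 without TetP_6h_rep1, 1294 without TetM_6h_rep1 and 1450 without TetP_3h_rep1. Scaled to the ERCC transcripts, no gene passed in edgeR (274 at an unadjusted p under 0.05), and the median of all genes moved to 0.27 on the log2 scale. The changes given here are relative to the bulk of all genes in a library.

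The genes with the largest increases included stress, autophagy and neuronal genes. TP53INP1, a stress gene that also acts in autophagy, had 94.4 and 140.4 CPM at 3 h and 75.6 and 144 CPM at 6 h in Tet plus cells. TP53INP1 in Tet minus cells had 36.8 and 56.4 CPM at 3 h and 25.7 and 36.8 CPM at 6 h. Replicate 2 was the higher in each group, and within and across pairs every Tet plus library exceeded every Tet minus library (log2 fold change 1.55, SE 0.115, adjusted p = 9.77e-05). OPTN, an autophagy receptor, had 40.1 and 36.7 CPM at 3 h and 34.4 and 35.2 CPM at 6 h in Tet plus cells. OPTN in Tet minus cells had 16.6 and 13.5 CPM at 3 h and 11.1 and 13.2 CPM at 6 h, with a gap between the arms of more than 2-fold (log2 fold change 1.43, SE 0.114, adjusted p = 0.000109). CCNG2, an atypical cyclin found in cells that stop dividing, rose by 1.20 (SE 0.132), KLHL24, an adaptor of a ubiquitin ligase, by 1.06, the long non-coding RNA MIAT by 1.08, the cannabinoid receptor gene CNR1 by 1.05, and the potassium channel regulator ABCC8 by 1.05. For each of these 7 genes all 4 Tet plus libraries lay above all 4 Tet minus libraries.

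Among the largest decreases were genes of a transporter, nucleolar proteins and a neuropeptide precursor. KIF17, DDN and DCLK3 were also among the 12 lowest changes named by rule. Each kept its call without any single library, though DCLK3 did not pass without the replicate term. SLC38A5, a transporter of glutamine and other neutral amino acids, had 37.9 and 26.3 CPM at 3 h and 27.5 and 23.8 CPM at 6 h in Tet plus cells. SLC38A5 in Tet minus cells had 78.5 and 77.4 CPM at 3 h and 73.5 and 71.8 CPM at 6 h, with a wide gap between the arms (log2 fold change -1.40, SE 0.109, adjusted p = 9.77e-05). The nucleolar protein gene CCDC86 fell by 1.24 (SE 0.181), METTL1, which methylates tRNA, by 1.10 (SE 0.132), the organic anion transporter SLCO4A1 by 1.16 (SE 0.104) and HPDL, a mitochondrial enzyme, by 1.10 (SE 0.103), all with no overlap between the arms. VGF, a neuropeptide precursor, had 93.9 and 14.3 CPM at 3 h and 125 and 14.3 CPM at 6 h in Tet plus cells. VGF in Tet minus cells had 158 and 58.4 CPM at 3 h and 253 and 81.1 CPM at 6 h. Its replicates stood far apart in both arms, so the arms overlapped. VGF was lower in Tet plus in 4 of 4 pairs, which was a condition for being named here (log2 fold change -1.53, SE 0.231, adjusted p = 0.00170). Without the replicate term the adjusted p of VGF was 0.345 (edgeR). ETV4, an ETS transcription factor, also had overlapping arms and fell in 4 of 4 pairs, by the same condition (log2 fold change -1.11, SE 0.189, adjusted p = 0.00329).

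Most ribosome assembly genes were lower during S phase with the shRNA. Of 46 genes of the small subunit processome and 40S assembly, 32 fell and 0 rose (69.6%, against 9.19% of all genes that fell), with a median log2 fold change of -0.48, against 0.02 over all genes tested. Of the 46, 30 had all Tet plus libraries below all Tet minus libraries, against 6.64% of all genes tested. Of 49 genes of 60S assembly, 35 fell and 0 rose (median -0.43), and of 18 snoRNP and nucleolar factors 11 fell and 0 rose (median -0.45), a count that was 7 without the replicate term. These 3 medians stayed below 0 with ERCC scaling (-0.23, -0.19 and -0.20).

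DHX37, an RNA helicase of the processome, had 93.2 and 81.7 CPM at 3 h and 105 and 91.5 CPM at 6 h in Tet plus cells. DHX37 in Tet minus cells had 186 and 218 CPM at 3 h and 223 and 229 CPM at 6 h. All Tet plus libraries were between 81.7 and 105 CPM and all Tet minus libraries at 186 CPM or above (log2 fold change -1.21, SE 0.0936, adjusted p = 9.77e-05). RRP12, needed for export of both subunits, fell by 1.04 (SE 0.101), and RRP9, a protein of the U3 particle that guides cleavage of the rRNA precursor, by 0.93 (SE 0.106). In 60S assembly, RRS1 had 14.8 and 11.1 CPM at 3 h and 15.7 and 15.6 CPM at 6 h in Tet plus cells. RRS1 in Tet minus cells had 28.4 and 22.8 CPM at 3 h and 32.4 and 33.7 CPM at 6 h, again without overlap (log2 fold change -1.04, SE 0.114, adjusted p = 0.000533), and the nucleolar MYBBP1A fell by 1.06 (SE 0.105) and NOP16 by 0.99 (SE 0.106). Among RNA-guided modification factors, NOLC1, a scaffold of nucleoli and Cajal bodies, fell by 0.71 (SE 0.0892) and DKC1, the pseudouridine synthase, by 0.56 (SE 0.0818). All 8 of these genes had every Tet plus library below every Tet minus library.

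The E-box CACGTG was looked for in the promoters of these genes. In RefSeq promoters (GRCh38.p14, 250 bases before to 50 after the start, 10739 of the 13937 genes matched), the motif, a palindrome read on both strands at once, was present in 1111 (10.3%). It was present in 6.6% of the 1022 matched genes that rose, in 17.3% of the 1018 that fell and in 10.0% of the 8699 not called. In the processome and 40S list 19 of 40 promoters held it (47.5%), in the 60S list 13 of 42 (31.0%) and in the snoRNP list 2 of 13 (15.4%). Other lists held it in 4 of 16 promoters for origin licensing, 6 of 29 for RNA polymerases I and III (20.7%), 5 of 30 for mitosis (16.7%), 3 of 19 for glycolysis (15.8%), 2 of 13 for purine synthesis (15.4%), 8 of 62 for the mitochondrial ribosome (12.9%) and 2 of 27 for forks and polymerases (7.4%), and in 3 of 62 (4.8%) for cytosolic ribosomal proteins and 0 of 15 and 0 of 30 for the noradrenergic and neuronal genes. These shares describe letters in a window, not binding. The sequences below show the motif, in capitals, with up to 30 bases on each side on the strand of the gene, for 6 of the lowered ribosome assembly genes that hold it before the start, chosen by the size of their change; they lie at chr2:130342664-130342729 (IMP4, + strand), chr12:101280065-101280104 (UTP20, +), chr1:43172772-43172820 (EBNA1BP2, -), chr12:113185504-113185569 (DDX54, -), chr11:34105584-34105628 (NAT10, +) and chr17:4704344-4704387 (PELP1, -), all promoter sequence from RefSeq, GRCh38.p14.
IMP4: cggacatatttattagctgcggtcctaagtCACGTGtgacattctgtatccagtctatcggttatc
UTP20: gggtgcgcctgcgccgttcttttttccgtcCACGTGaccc
EBNA1BP2: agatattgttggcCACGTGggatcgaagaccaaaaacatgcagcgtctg
DDX54: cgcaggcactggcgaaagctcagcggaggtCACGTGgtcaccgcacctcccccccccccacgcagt
NAT10: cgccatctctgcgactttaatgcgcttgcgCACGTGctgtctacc
PELP1: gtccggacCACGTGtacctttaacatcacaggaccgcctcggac
The 6 genes were chosen among those that fell, so their direction was set by the choice. IMP4, a protein of the U3 particle, had 47.9 and 43.6 CPM at 3 h and 47.3 and 38.5 CPM at 6 h in Tet plus cells. IMP4 in Tet minus cells had 74.1 and 73.2 CPM at 3 h and 77.3 and 85.6 CPM at 6 h (log2 fold change -0.81, SE 0.100, adjusted p = 0.000715). UTP20, a processome scaffold, fell by 0.74 (SE 0.0831), EBNA1BP2, a 60S assembly factor, by 0.71 (SE 0.0981) and the nucleolar helicase DDX54 by 0.66 (SE 0.0878). NAT10, which acetylates 18S rRNA, fell by 0.49 (SE 0.117, adjusted p = 0.0150) and PELP1, of a complex that processes the 60S precursor, by 0.48 (SE 0.0949). Of the 6, NAT10 alone had overlapping arms, and it alone lost its call when 1 library was left out (TetP_3h_rep1 or TetM_6h_rep1).

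**Figure D3:**
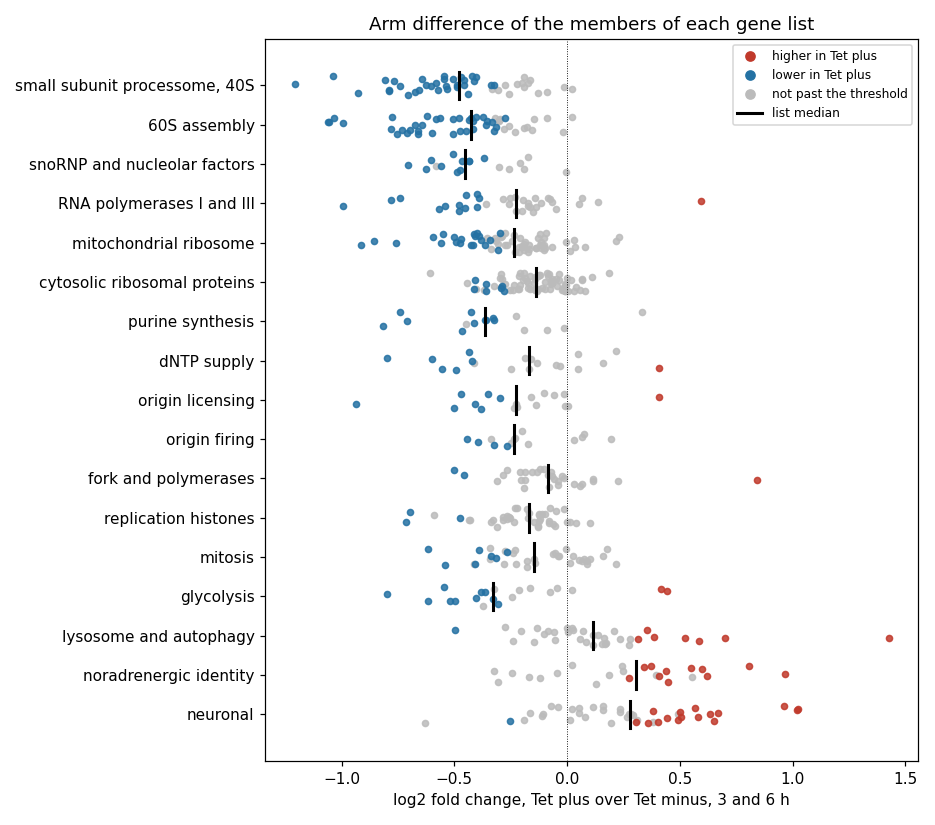
Log2 fold change (Tet plus over Tet minus, 3 and 6 h) of every tested member of 17 gene lists, 1 point per gene, with genes past the threshold in red (higher) or blue (lower) and a black bar at the list median. The medians of the ribosome assembly lists lay between -0.48 and -0.43, those of the replication lists nearer 0, and those of the noradrenergic and neuronal lists at 0.31 and 0.28.

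A smaller share of the genes for the polymerases that make rRNA and tRNA fell. By count of calls over both times, cytosolic ribosomal protein genes fell about as often as genes at large, though nearly all were below 0 at 6 h. Of 35 RNA polymerase I and III genes 12 fell and 1 rose, with a median of -0.23 that was 0.04 with ERCC scaling. CD3EAP, a polymerase I subunit, had 28.8 and 34.2 CPM at 3 h and 31.8 and 31.1 CPM at 6 h in Tet plus cells. CD3EAP in Tet minus cells had 56.2 and 68.4 CPM at 3 h and 54.9 and 72.6 CPM at 6 h, each Tet plus library below each Tet minus library (log2 fold change -0.99, SE 0.0964, adjusted p = 0.000275). POLR3G fell and its paralogue POLR3GL rose (-0.74 and 0.59), a pair singled out after their values were seen. Of 76 cytosolic ribosomal protein genes 7 fell and 0 rose, 9.21% of the list against 9.19% of all genes that fell, with a median of -0.14 (0.08 with ERCC scaling). At 3 h their median was 0.02, with 34 of 76 below 0. At 6 h it was -0.27, with 75 of 76 below 0. Of the 76, 0 passed the test of a difference between the times. These genes share sequence with many pseudogenes, so their single values are uncertain. Of 67 mitochondrial ribosomal protein genes 21 fell and 0 rose (median -0.24), led by adjusted p by MRPS12 at -0.86 (SE 0.106). The cytosolic count was 0 without TetP_6h_rep1 or TetM_6h_rep1, 2 without TetP_6h_rep2, 3 without TetP_3h_rep1, 13 without TetM_3h_rep2 and 0 without the replicate term; the mitochondrial count was 8 without TetM_6h_rep1, 10 without TetP_6h_rep1, 11 without TetP_3h_rep1, 12 without TetP_6h_rep2 and 7 without the replicate term.

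Within the replication machinery, genes of 5 subunits of the replicative helicase were lower, while the genes of the sliding clamp, of the S phase ribonucleotide reductase and of thymidylate synthase did not pass the test. Of 18 origin licensing genes, 7 fell and 1 rose (38.9% lower, against 9.19% of all genes that fell; median -0.23, and 0.03 with ERCC scaling). MCM3, a subunit of the replicative helicase, had 263 and 280.3 CPM at 3 h and 182 and 186 CPM at 6 h in Tet plus cells. MCM3 in Tet minus cells had 452 and 519.7 CPM at 3 h and 354 and 400.5 CPM at 6 h. All Tet plus libraries lay below all Tet minus libraries, and the log2 fold change was -0.84 at 3 h and -1.03 at 6 h (average -0.93, SE 0.0883, adjusted p = 0.000275). MCM2 had 647 and 609 CPM at 3 h and 428 and 409 CPM at 6 h in Tet plus cells. MCM2 in Tet minus cells had 766 and 823 CPM at 3 h and 607 and 723 CPM at 6 h. At each time both Tet plus libraries were the lower, with the arms overlapping across times (log2 fold change -0.50, SE 0.105, adjusted p = 0.00841). MCM5 fell by 0.47 (SE 0.0944), MCM7 by 0.41, MCM4 by 0.30, CDT1, which brings the helicase to origins, by 0.38, and ORC1, a subunit of the origin recognition complex, by 0.35, while ORC4, another subunit, rose by 0.41. The lower count was 3 without TetP_6h_rep1 and 4 without TetM_6h_rep1 or without the replicate term. The calls of CDT1 and ORC1 ended without TetP_6h_rep1 or TetM_6h_rep1, that of MCM7 without TetP_6h_rep1, that of MCM4 without TetP_3h_rep1, either Tet plus 6 h library or TetM_6h_rep1, and that of ORC4 without TetP_6h_rep1 or either Tet minus 6 h library.

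Downstream of licensing, fewer genes passed. Of 14 origin firing genes 4 fell and 0 rose (28.6% lower, against 9.19% of all genes; median -0.23, and 0.00 with ERCC scaling): GINS3, of the active helicase, by 0.45 (SE 0.0968), the helicase RECQL4 by 0.40 (SE 0.0876), the kinase activator DBF4B by 0.33 (SE 0.0958) and MCM10 by 0.27 (SE 0.0853). That count was 0 without TetP_6h_rep1 or without the replicate term, and 2 without TetM_6h_rep1 or TetP_3h_rep1. MCM10 kept its call only without TetM_3h_rep2, and DBF4B without TetP_3h_rep2, TetM_3h_rep1 or TetM_6h_rep2. Of 30 fork and polymerase genes 2 fell and 1 rose (6.67% lower, below the 9.19% of all genes; median -0.08, and 0.14 with ERCC scaling). The 3 belong to DNA polymerase delta, which copies the lagging strand. Its catalytic subunit gene POLD1 had 175 and 154 CPM at 3 h and 122 and 110.2 CPM at 6 h in Tet plus cells. POLD1 in Tet minus cells had 196 and 226 CPM at 3 h and 178 and 184 CPM at 6 h, without overlap (log2 fold change -0.50, SE 0.0991, adjusted p = 0.00643). POLD2 fell by 0.46 (SE 0.0962), whereas POLD4, the small subunit, had 4.70 and 5.05 CPM at 3 h and 5.03 and 4.06 CPM at 6 h in Tet plus cells. POLD4 in Tet minus cells had 3.07 and 2.83 CPM at 3 h and 2.96 and 1.83 CPM at 6 h, also without overlap, and POLD4 rose by 0.84 (SE 0.173, adjusted p = 0.00764). PCNA, the sliding clamp, chosen after its values were seen, averaged 273 ± 71.6 CPM with tetracycline, against 284 ± 54.7 CPM without it (SD, n = 4 each), with the arms intermixed (log2 fold change -0.08, adjusted p = 0.641).

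Purine synthesis genes were lower in most cases, and deoxynucleotide genes in part. Of 16 purine genes 10 fell and 0 rose (62.5% lower, against 9.19% of all genes; median -0.36, and -0.11 with ERCC scaling). IMPDH1, the first step towards guanine nucleotides, had 79.9 and 53.96 CPM at 3 h and 63.4 and 50.2 CPM at 6 h in Tet plus cells. IMPDH1 in Tet minus cells had 117 and 111 CPM at 3 h and 101 and 101 CPM at 6 h, each Tet plus library below each Tet minus library (log2 fold change -0.82, SE 0.102, adjusted p = 0.000718). PFAS and ADSL, of the pathway that builds the purine ring, fell by 0.71 (SE 0.106) and 0.47 (SE 0.105), and the salvage enzyme gene APRT by 0.74 (SE 0.105). Of 19 genes of dNTP supply 6 fell and 1 rose (31.6% lower; median -0.17, and 0.09 with ERCC scaling). DCTPP1, which clears modified dCTP, fell by 0.80 (SE 0.0945), TK1, thymidine kinase, by 0.49 (SE 0.0922) and NME1, a nucleoside diphosphate kinase whose reads overlap in sequence with NME2, by 0.60 (SE 0.109), while the reductase subunit gene RRM2B rose by 0.41 (SE 0.100, adjusted p = 0.0168). The S phase reductase subunit gene RRM2, chosen after its values were seen, had 529 and 459.6 CPM at 3 h and 542 and 524 CPM at 6 h in Tet plus cells. RRM2 in Tet minus cells had 539 and 509 CPM at 3 h and 541 and 509 CPM at 6 h, values that were intermixed (-0.03, adjusted p = 0.823); RRM1 and TYMS had log2 fold changes of 0.05 and -0.13. The purine count was 5 without TetP_6h_rep1 or the replicate term and 6 without TetM_6h_rep1, TetP_3h_rep1 or TetP_6h_rep2. The count of lower dNTP genes was 3 without TetM_6h_rep1, TetP_3h_rep1 or the replicate term, and RRM2B did not pass without TetM_6h_rep1, TetP_3h_rep2 or TetP_6h_rep1.

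By count of calls over both times, replication-dependent histone genes fell no more often than genes at large, though all 41 tested were below 0 at 3 h. Of these 41, of 58 listed, 3 fell and 0 rose (7.32% lower, against 9.19% of all genes). Their median was -0.17 over both times (0.04 with ERCC scaling), -0.39 at 3 h and -0.04 at 6 h. At 3 h 1 of the 41 passed as lower, and at 6 h 23 of 41 were below 0. Of the 41, 0 passed the test of a difference between the times. With 28 libraries fitted together 14 of the 41 fell over both times, beside 2413 of all 14331 genes tested. HIST3H2A, an H2A gene, had 217 and 139 CPM at 3 h and 119 and 61.1 CPM at 6 h in Tet plus cells. HIST3H2A in Tet minus cells had 374 and 289 CPM at 3 h and 119 and 121 CPM at 6 h. The Tet plus values at 3 h were the lower of each pair and did not overlap the Tet minus values, while at 6 h replicate 1 was alike in the arms and replicate 2 was not (-0.92 at 3 h and -0.50 at 6 h; average -0.71, SE 0.145, adjusted p = 0.00723). Of 22 histone supply genes 4 fell and 0 rose (median -0.06, above 0 with ERCC scaling), among them IPO4, which carries histones into the nucleus, at -0.84 (SE 0.0954), and CHAF1A, of the chaperone that loads histones at forks, at -0.33 (SE 0.0835). Histone gene copies share sequence, so single values are uncertain. The histone count was 1 without TetM_3h_rep1, TetP_3h_rep1 or TetP_6h_rep2, 8 without TetP_6h_rep1, 9 without TetM_6h_rep1 and 0 without the replicate term, and 2 histone supply genes fell without TetM_6h_rep1 or without the replicate term. CHAF1A lost its call without TetP_3h_rep2, TetP_6h_rep1 or TetM_6h_rep1.

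For genes of DNA repair, cohesion, chromatin copying and the S phase checkpoint the calls were few, at shares near those over all genes (9.19% lower, 9.41% higher and 18.6% in either direction). Of 31 homologous recombination and Fanconi genes 2 fell and 1 rose, of 16 cohesion genes 2 fell, of 16 mismatch and base repair genes 2 fell, of 15 genes that copy chromatin marks 1 fell and of 20 checkpoint genes 1 fell and 1 rose. The medians of these lists lay between -0.05 and 0.02. NTHL1, a base excision glycosylase gene, had 30.4 and 33.5 CPM at 3 h and 27.3 and 25.1 CPM at 6 h in Tet plus cells. NTHL1 in Tet minus cells had 46.05 and 46.4 CPM at 3 h and 43.8 and 50.2 CPM at 6 h, without overlap (log2 fold change -0.69, SE 0.104, adjusted p = 0.00171). XRCC3, of homologous recombination, fell by 0.47 (SE 0.0856), UHRF1, which recruits the maintenance DNA methyltransferase, by 0.44 (SE 0.0944), and CDC25A, the phosphatase that activates CDK2, by 0.54 (SE 0.0839, adjusted p = 0.00206). The other calls in these lists ended without single libraries. UNG, of base repair, lost its call without TetP_6h_rep1, and ETAA1, of the checkpoint, without TetP_3h_rep2, TetP_6h_rep1 or TetM_6h_rep1. CDCA5 and CHTF18, of cohesion, kept theirs only without TetM_3h_rep1 or TetM_6h_rep2. FANCL kept its call only without TetM_3h_rep1, TetP_6h_rep2 or TetM_6h_rep2, and FANCG only without TetP_3h_rep2 or either Tet minus 3 h library. Without the replicate term 1 recombination and Fanconi gene and 1 base repair gene fell, 0 cohesion genes fell, and 0 recombination and 0 checkpoint genes rose.

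Some genes of mitosis were lower. Of 35 mitosis genes 7 fell and 0 rose (20% lower, against 9.19% of all genes that fell; median -0.15 over both times, -0.03 at 3 h and -0.24 at 6 h, and 0.10 over both times with ERCC scaling). CDC20, an activator of the anaphase-promoting complex, had 119 and 75.96 CPM at 3 h and 251 and 149 CPM at 6 h in Tet plus cells. CDC20 in Tet minus cells had 134 and 114 CPM at 3 h and 354 and 281 CPM at 6 h. Its level was higher at 6 h than at 3 h in every replicate of each arm, and at each time and replicate lower in Tet plus (log2 fold change -0.54, SE 0.111, adjusted p = 0.00723). Without the replicate term the adjusted p of CDC20 was 0.140 (edgeR). PLK1, the mitotic kinase, fell by 0.62 (SE 0.124), INCENP, which anchors Aurora B, by 0.41 (SE 0.0939) and the mitotic cyclin gene CCNB1 by 0.39 (SE 0.117, adjusted p = 0.0367). The list mean at 6 h, 7.23 in Tet plus and 7.51 in Tet minus cells, moved with these genes, and the part of the position in the cycle was not tested. The count was 2 without TetM_6h_rep1, 3 without TetM_6h_rep2, TetP_3h_rep1, TetP_6h_rep1 or TetP_6h_rep2, and 1 without the replicate term; CCNB1 kept its call only without TetP_3h_rep2 or TetM_3h_rep2, and INCENP lost its call without TetM_6h_rep1.

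Among regulators of the G1/S step, CDK4 and a D-type cyclin were lower and 2 of 7 CDK inhibitor genes, CDKN1A and CDKN1C, higher. CDK4, the G1 kinase, had 167 and 188 CPM at 3 h and 149 and 139 CPM at 6 h in Tet plus cells. CDK4 in Tet minus cells had 264 and 288 CPM at 3 h and 240.0 and 256 CPM at 6 h. The highest Tet plus library stood below the lowest Tet minus library (log2 fold change -0.71, SE 0.0872, adjusted p = 0.000677). CCND3, a partner of CDK4, fell by 0.62 (SE 0.116), and E2F5, a repressive E2F gene, by 0.84 (SE 0.101), while RB1, the retinoblastoma gene, rose by 0.54 (SE 0.120). CDKN1A, which encodes the CDK inhibitor p21, had 423 and 358 CPM at 3 h and 203 and 216 CPM at 6 h in Tet plus cells. CDKN1A in Tet minus cells had 309 and 274 CPM at 3 h and 147 and 133 CPM at 6 h. Its level was lower at 6 h than at 3 h in every replicate of each arm, and higher in Tet plus at each time and replicate (log2 fold change 0.50, SE 0.0906, adjusted p = 0.00415). CDKN1C, another inhibitor gene, had 7.05 to 12.8 CPM in Tet plus and 4.11 to 6.86 CPM in Tet minus cells and rose by 0.79 (SE 0.139). Of 12 G1 cyclin and CDK genes 3 fell and 1 rose, of 7 CDK inhibitor genes 2 rose and 0 fell, and of 20 E2F and RB genes 4 fell and 2 rose, beside 9.19% of all genes that fell and 9.41% that rose. CDKN2A, an inhibitor of CDK4 singled out after its values were seen, did not pass at -0.48 (SE 0.161, adjusted p = 0.0582), though all Tet plus libraries lay below all Tet minus libraries. The medians of the G1 cyclin and the E2F and RB lists were below 0, and above 0 with ERCC scaling. The 4 lower E2F and RB genes were 1 or 2 without any one of 6 libraries, namely the 4 Tet plus libraries, TetM_3h_rep2 and TetM_6h_rep1, and 1 without the replicate term. The 2 higher ones were 1 without TetP_3h_rep2, TetP_6h_rep1, TetM_6h_rep1 or the replicate term, and 2 G1 cyclin and CDK genes rose without TetP_6h_rep2 or TetM_6h_rep2.

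Of 35 lysosome and autophagy genes 7 rose (median 0.11) and 1, ATG9A, fell (-0.50), beside 9.41% of all genes that rose, the risers including the autophagy receptor genes OPTN and NBR1 (0.52, SE 0.0812), BNIP3L, a mitophagy receptor (0.58, SE 0.0952), and WIPI1, of the forming autophagosome (0.70, SE 0.0987). The count of 7 was 4 without TetP_3h_rep1, TetP_6h_rep1 or TetM_6h_rep1.

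Many neuronal and noradrenergic genes were higher with the shRNA. Of 42 neuronal genes 16 rose (median 0.28) and 1, NEFL, fell (-0.25, a call lost without any one of 6 libraries, all but the replicate 2 libraries of either arm at 6 h), and of 24 noradrenergic genes 11 rose and 0 fell (median 0.31), beside 9.41% of all genes that rose. DCX, a microtubule protein of migrating neurons, had 71.7 and 55.5 CPM at 3 h and 102 and 91.9 CPM at 6 h in Tet plus cells. DCX in Tet minus cells had 39.01 and 34.04 CPM at 3 h and 51.4 and 31.5 CPM at 6 h, each Tet plus library above each Tet minus library (log2 fold change 1.03, SE 0.125, adjusted p = 0.000664). CADPS, which primes dense-core vesicles, rose by 1.02 (SE 0.127), STMN4, a tubulin-binding protein gene, by 0.96 (SE 0.132) and the adhesion molecule gene CNTN1 by 0.67 (SE 0.0933). DDC, of catecholamine synthesis, had 27.5 and 31.5 CPM at 3 h and 27.2 and 25.3 CPM at 6 h in Tet plus cells. DDC in Tet minus cells had 15.1 and 12.5 CPM at 3 h and 13.2 and 16.02 CPM at 6 h, again without overlap (log2 fold change 0.97, SE 0.123, adjusted p = 0.000761). SLC6A2, the noradrenaline transporter gene, rose by 0.80 (SE 0.106), SATB1, a chromatin organiser, by 0.60 (SE 0.112) and the granin gene CHGB by 0.55 (SE 0.0913). Without the replicate term the adjusted p of CHGB was 0.156 (edgeR). Of the 42 neuronal genes, 8 had a log2 fold change below 0. The lowest, NEFM, was at -0.63 over both times without passing. At 3 h NEFM was at -1.06, and 1 neuronal gene passed as lower at that time. The neuronal count of 16 was 9 without TetP_3h_rep1, TetP_6h_rep1 or TetM_6h_rep1, 10 without TetM_3h_rep1 and 5 without the replicate term. The noradrenergic count of 11 was 5 without TetP_6h_rep1, 6 without TetP_3h_rep1, TetP_3h_rep2, TetM_3h_rep1 or TetM_6h_rep1, and 4 without the replicate term.

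Genes of sugar, amino acid and polyamine metabolism changed too, more of them lower than higher. Of 20 glycolysis genes 10 fell and 2 rose (median -0.33, and -0.07 with ERCC scaling), beside 9.19% of all genes that fell and 9.41% that rose. LDHA, which turns pyruvate into lactate, had 314 and 313 CPM at 3 h and 325 and 382 CPM at 6 h in Tet plus cells. LDHA in Tet minus cells had 542 and 628 CPM at 3 h and 565 and 584 CPM at 6 h, without overlap (log2 fold change -0.80, SE 0.0923, adjusted p = 0.000536). The glucose transporter gene SLC2A1 fell by 0.62 (SE 0.0910) and ENO1, an enolase gene, by 0.55 (SE 0.105), while ENO2, the neuronal enolase gene, and PDK1, which restrains entry of pyruvate into the mitochondrion, both singled out after their values were seen, rose by 0.44 and 0.42; neither call held without TetP_6h_rep1 or TetM_6h_rep1, and 1 glycolysis gene rose without TetM_3h_rep1, TetM_6h_rep2, either Tet plus 3 h library or TetP_6h_rep2. Of 18 amino acid transporter genes 5 fell and 1 rose; SLC7A5, for large neutral amino acids, fell by 0.93 (SE 0.105) and SLC38A2, which starved cells induce, rose by 0.50 (SE 0.0900). Of 18 serine and one-carbon genes 6 fell, led by MTHFD1L of the mitochondrial folate pathway at -0.64 (SE 0.0929). Of 15 polyamine genes 5 fell and 1, PAOX, rose (0.52), and ODC1, the first enzyme of the pathway, was at -0.75 (SE 0.107). Of 23 cholesterol genes 6 fell and 2 rose, of 18 chaperonin and chaperone genes 7 fell, of 33 initiation factor genes 6 fell and 1 rose, and of 20 tRNA synthetase genes 4 fell. The medians of the transporter, one-carbon, polyamine, cholesterol, initiation factor and synthetase lists were below 0, and above 0 with ERCC scaling. Lower glycolysis genes numbered 4 without TetP_6h_rep1, 5 without TetP_3h_rep1 or TetM_6h_rep1, 6 without either replicate 2 of Tet plus, and 3 without the replicate term. Lower cholesterol genes numbered 2 without TetP_3h_rep1, TetP_6h_rep2 or TetM_6h_rep1 and 3 without TetP_6h_rep1 or TetM_6h_rep2. Lower chaperonin and chaperone genes numbered 4 without TetP_3h_rep1, either Tet plus 6 h library or TetM_6h_rep1, and lower initiation factor genes 3 without TetP_6h_rep1. Lower synthetase genes numbered 0 without TetM_6h_rep1, 1 without TetP_3h_rep1, TetP_6h_rep2 or TetM_6h_rep2 and 2 without TetP_6h_rep1. PAOX did not pass without any of the 8 libraries. The 2 higher cholesterol genes were 1 without TetP_3h_rep2, TetP_6h_rep1 or TetM_6h_rep1, and the higher initiation factor gene did not pass without TetP_3h_rep1 or any one 6 h library. Without the replicate term the lower counts were 1 for cholesterol, 1 for synthetases, 3 for one-carbon, 3 for initiation factors and 4 for chaperonins and chaperones, and 0 transporter, polyamine, glycolysis or initiation factor genes rose.

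Immediate early genes, which answer growth signals within minutes, fell in 4 of 23 and rose in 0 (beside 9.19% of all genes that fell; median -0.39, and -0.06 with ERCC scaling), among them JUNB at -0.66 (SE 0.210) and NR4A1 at -0.67 (SE 0.191). NR4A1 lost its call without TetP_3h_rep2, TetP_6h_rep1 or TetM_6h_rep1, and JUNB, lower in 3 of 4 pairs, without any one library except the replicate 1 libraries at 3 h. The count was 0 without TetP_3h_rep2, TetP_6h_rep1 or the replicate term, 1 without TetM_6h_rep1 and 2 without TetM_3h_rep2 or TetM_6h_rep2. Of 15 interferon response genes 3 rose and 1 fell, beside 9.41% of all genes that rose and 9.19% that fell, with PARP9 at 0.68 (SE 0.129). Without TetP_3h_rep1 or TetP_6h_rep1 1 rose, and 0 fell without TetP_3h_rep2, any one 6 h library or the replicate term. Some markers of other cell types rose at low levels. The endothelial gene KDR, at 1.35 to 2.72 CPM in Tet plus cells against 0.451 to 1.21 CPM in Tet minus cells, rose by 1.11. CDH5, at 0.137 to 0.865 CPM in Tet plus against 0 to 0.271 CPM in Tet minus cells, rose by 1.68. The epithelial EPCAM, at 0.649 to 1.28 CPM in Tet plus against 0.231 to 0.531 CPM in Tet minus cells, rose by 1.35. Of 13 mesenchymal markers 2 rose (ACTA2 by 0.75 and FN1 by 0.42) and 1 fell (THY1, -0.50). The call of CDH5 held only without TetM_3h_rep1, that of EPCAM ended without any one 3 h library, that of FN1 without replicate 1 of either arm at 3 h or either Tet plus 6 h library, and that of THY1 without either Tet plus 3 h library, TetM_3h_rep2, TetP_6h_rep1 or TetM_6h_rep1.

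No gene passed the test of a difference in the response between 3 h and 6 h, though more genes passed at 6 h than at 3 h. At 3 h 223 genes passed (1.6%), 82 higher (0.588%) and 141 lower (1.01%). At 6 h 1001 passed (7.18%), 495 higher (3.55%) and 506 lower (3.63%). Of these, 187 were called at both times in the same direction, 83.9% of those called at 3 h and 18.7% of those called at 6 h. The 2592 genes called over both times all had the same sign at 3 h and at 6 h, which their choice by the average favours. For the difference between the times 0 genes passed (0%) in edgeR and 0 in DESeq2, with 367 and 210 at an unadjusted p under 0.05 and a smallest adjusted p of 0.954 in edgeR. DHX37 had log2 fold changes of -1.21 at 3 h and -1.21 at 6 h, CNR1 of 1.03 and 1.07, and MIAT of 0.59 and 1.58. With the replicate term left out, 0 genes passed at either time (1316 and 2200 at an unadjusted p under 0.05), and leaving out 1 library at that time took the 3 h count to 0 (TetM_3h_rep2), 2 (TetP_3h_rep2) or 96 (TetP_3h_rep1) and the 6 h count to 1 (TetP_6h_rep2), 9 (TetM_6h_rep2) or 608 (TetP_6h_rep1). Where an arm and time keeps 1 library, that library is assumed to vary as the others do.

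**Figure D4:**
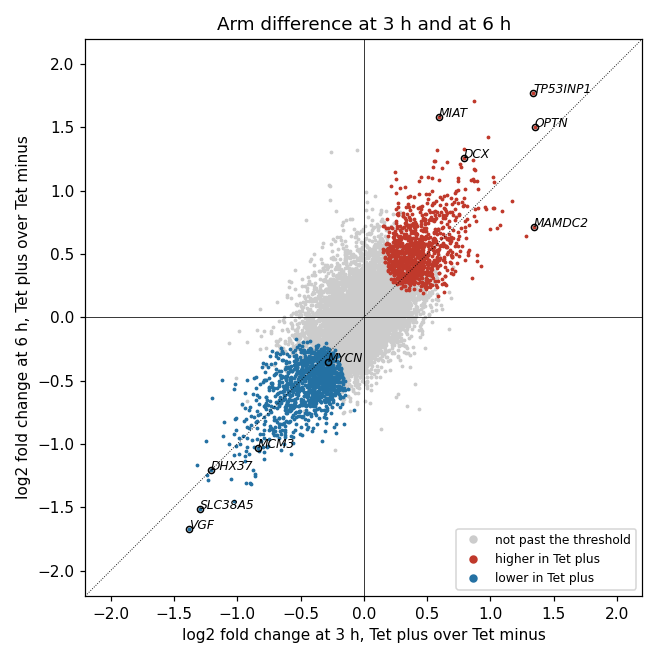
Log2 fold change (Tet plus over Tet minus) at 6 h against that at 3 h for the 10254 genes whose mean log2 CPM was 3 or more, in red or blue where the average of both times passed the threshold (higher or lower) and grey otherwise; the dotted line marks equal values. Genes called over both times lie in the upper right and lower left, on either side of the line, with MIAT larger at 6 h and MAMDC2 larger at 3 h; 0 genes passed the test of the difference between the times.

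Set against other times of the cycle, more genes passed the test against 12 and 14 h than against the arrest or 8 and 10 h. The arrest had 4 libraries and each of the other 2 parts 8, so these counts of calls do not rank the times. At an unadjusted p under 0.05 (edgeR) there were 2352 genes against 0 h, 1610 against 8 and 10 h and 2307 against 12 and 14 h. Here the arm difference at 3 and 6 h was compared with that at other times over the 28 libraries from 0 to 14 h, with replicate as a term within each lane set. Against the arrested cells (0 h) 2 of 14331 genes differed (0.014%). CHRM1, a muscarinic receptor gene, had an arm difference of 0.24 in S phase and 1.41 at 0 h (difference -1.17, SE 0.188, adjusted p = 0.0394), with 32.4 and 16.8 CPM at 3 h and 37.8 and 18.6 CPM at 6 h in Tet plus cells. CHRM1 in Tet minus cells had 22.7 and 17.7 CPM at 3 h and 30.01 and 16.8 CPM at 6 h. Before release it had 22.6 and 17.6 CPM at 0 h in Tet plus cells. CHRM1 in Tet minus cells had 9.87 and 5.59 CPM at 0 h. SUN2, a nuclear envelope protein gene, had 0.16 in S phase and 0.96 at 0 h (difference -0.80, SE 0.130, adjusted p = 0.0394). At 0 h both genes were higher in both Tet plus libraries, while in S phase the arms overlapped. Without 1 library at 3 or 6 h, 0 (each replicate 2), 3 (TetP_6h_rep1), 7 (TetM_6h_rep1), 68 (TetP_3h_rep1) or 237 genes (TetM_3h_rep1) passed.

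Against 8 and 10 h, when mitotic transcripts peaked, 2 genes differed as well (0.014%), both histones of the H2A family. H2AFX, the variant that marks DNA breaks, had an arm difference of -0.57 in S phase and of 0.27 at 8 h and 0.09 at 10 h (difference -0.75, SE 0.104, adjusted p = 0.00928). With CPM scaled over the 28 libraries, as in all comparisons with other times, it had 212 and 111 CPM at 3 h and 178 and 93.8 CPM at 6 h in Tet plus cells. H2AFX in Tet minus cells had 276 and 174 CPM at 3 h and 246 and 162 CPM at 6 h. Replicate 1 was the higher in each group, and within each pair Tet plus was lower. At the later times it had 130.1 and 123 CPM at 8 h and 89.1 and 75.9 CPM at 10 h in Tet plus cells. H2AFX in Tet minus cells had 122 and 91.1 CPM at 8 h and 86.3 and 69.4 CPM at 10 h. HIST2H2AB had -0.27 in S phase, 0.62 at 8 h and 0.43 at 10 h (difference -0.80, SE 0.121, adjusted p = 0.0174). The replication histone list as a whole stood at 6.77 mean log2 CPM in Tet plus and 6.29 in Tet minus cells at 8 h, the order of the arms opposite to that at 3 h. Leaving out 1 library gave 0 (TetP_3h_rep2 or TetP_6h_rep2), 5 (TetM_3h_rep1), 18 (TetP_3h_rep1), 39 (TetP_6h_rep1) or 46 genes (TetM_6h_rep1).

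Against 12 and 14 h, when histone transcripts were rising again in Tet minus cells, 139 genes differed (0.97%). Of these, 85 had a higher arm difference in S phase, and for all 85 the mean difference at 12 and 14 h was below 0. They included many genes of DNA replication. Of the 85, 23 were also called lower in Tet plus cells in S phase by this fit. CCNE2, a G1/S cyclin gene, had 74.7 and 76.7 CPM at 3 h and 32.5 and 30.4 CPM at 6 h in Tet plus cells. CCNE2 in Tet minus cells had 92.5 and 56.2 CPM at 3 h and 26.9 and 33.7 CPM at 6 h. The arms were intermixed at each time (arm difference 0.04). Later it had 17.03 and 17.6 CPM at 12 h and 16.98 and 23.6 CPM at 14 h in Tet plus cells. CCNE2 in Tet minus cells had 32.5 and 39.1 CPM at 12 h and 45.6 and 67.2 CPM at 14 h, with every Tet plus library below every Tet minus library at these times (-1.04 at 12 h and -1.47 at 14 h; difference 1.29, SE 0.152, adjusted p = 0.000153). DTL, of the ubiquitin ligase that limits relicensing, had 0.00 in S phase, -1.05 at 12 h and -1.45 at 14 h (difference 1.25, SE 0.0937, adjusted p = 4.13e-07). ZNF367, a zinc finger gene, differed by 1.24, SE 0.119, adjusted p = 1.49e-05, the other G1/S cyclin gene CCNE1 by 0.98, SE 0.134, adjusted p = 0.000746, and WDR76, a WD-repeat gene, by 0.88, SE 0.0913, adjusted p = 2.46e-05. By list, 9 of 31 recombination and Fanconi genes, 8 of 30 fork and polymerase genes, 6 of 20 checkpoint genes, 6 of 18 licensing genes, 6 of 22 histone supply genes and 4 of 41 replication histones were higher in this comparison and 0 lower, against 0.593% of all genes that were higher. MCM3, lower in S phase, was further lowered later (-0.95, then -1.32 at 12 h and -1.57 at 14 h; difference 0.49, SE 0.0963, adjusted p = 0.0135).

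The 54 genes with a lower arm difference in S phase than at 12 and 14 h included genes of mitosis, and for 40 of them the difference was below 0 in S phase and above 0 later. Of 35 mitosis genes 11 were lower in this comparison and 0 higher, against 0.377% of all genes that were lower. UBE2C, the ubiquitin-conjugating enzyme of the anaphase-promoting complex, had 73.4 and 43.7 CPM at 3 h and 144 and 70.6 CPM at 6 h in Tet plus cells. UBE2C in Tet minus cells had 79.1 and 50.7 CPM at 3 h and 172 and 126 CPM at 6 h. Within each pair Tet plus was the lower. At the later times it had 217 and 159.9 CPM at 12 h and 136 and 81.9 CPM at 14 h in Tet plus cells. UBE2C in Tet minus cells had 149 and 98.2 CPM at 12 h and 88.00 and 54.4 CPM at 14 h, and within each pair Tet plus was the higher (arm differences -0.35 in S phase, 0.62 at 12 h and 0.61 at 14 h; difference -0.97, SE 0.119, adjusted p = 0.000254). PIF1, a DNA helicase gene, had -0.62 in S phase, 0.76 at 12 h and 0.47 at 14 h (difference -1.23, SE 0.199, adjusted p = 0.00334), and PSRC1, of the mitotic spindle, differed by -0.93, SE 0.170, adjusted p = 0.00797. Of other function, TNFAIP8L1 differed by -1.50, SE 0.192, adjusted p = 0.000373 and the semaphorin receptor gene PLXNA2 by -0.97, SE 0.176, adjusted p = 0.00783. At 12 h the mitosis list stood at 7.65 mean log2 CPM in Tet plus and 7.34 in Tet minus cells and the histone list at 5.84 in Tet plus and 6.32 in Tet minus cells. At 14 h the histone list stood at 5.96 in Tet plus and 6.64 in Tet minus cells. The part of the position in the cycle in these differences was not tested. Without 1 library the count of 139 was 56 (TetM_3h_rep2), 72 (TetP_3h_rep2), 261 (TetP_3h_rep1), 289 (TetM_6h_rep2) or 578 (TetM_3h_rep1), and without the replicate terms 1 gene passed.

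**Figure D5:**
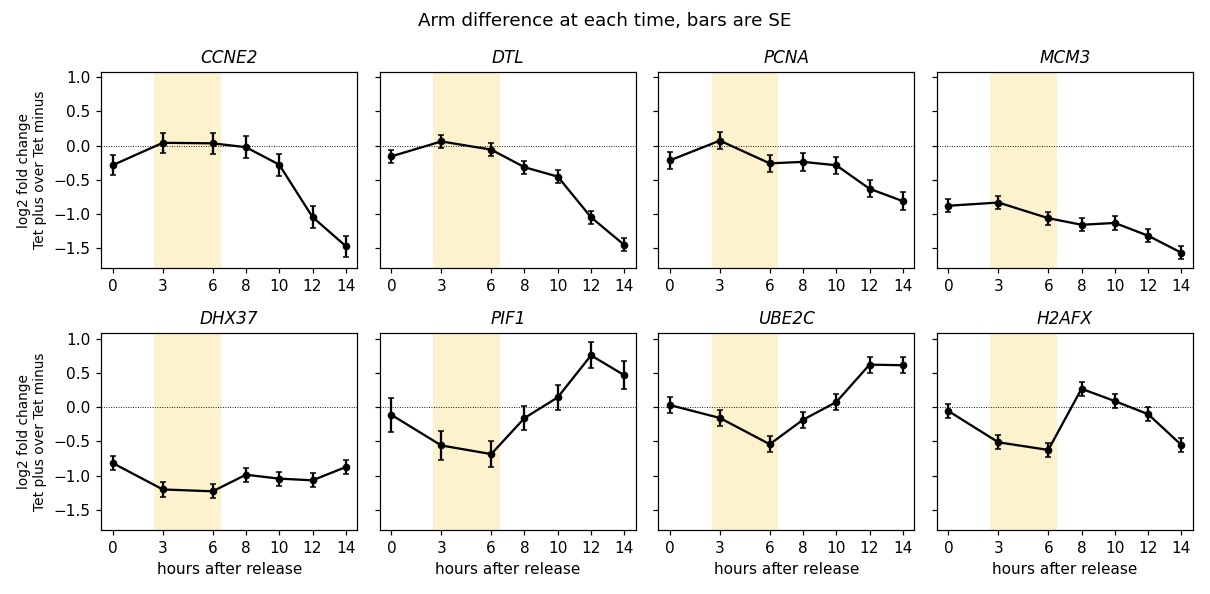
Arm difference (log2 fold change, Tet plus over Tet minus, with its SE) of 8 genes at each time from 0 to 14 h, from the fit of 28 libraries; the shaded span marks 3 and 6 h and the dotted line no difference. CCNE2 and DTL were near 0 in S phase and below -1 at 12 and 14 h, MCM3 and DHX37 were below 0 at all 7 times, and UBE2C and PIF1 were below 0 in S phase and above 0 at 12 and 14 h.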

How the data were processed

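Total RNA was depleted of rRNA, ERCC mix 1 was added to each sample, and directional libraries were sequenced, per the labels' protocols. The values are counts of reads per gene as deposited by the authors, not normalized, in 1 table of 23367 gene rows and 92 ERCC rows (3929 gene rows were 0 throughout); reads were aligned to hg19 with TopHat2 2.0.5 and counted with HTSeq, per the submitters' processing notes. For HTSeq, the version, annotation and strand setting are each not given in the sources used here, so overlapping, antisense and duplicated genes may share reads. ERCC rows stayed out of library sizes and tests.

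Counts were analysed with edgeR 4.0.16 in R 4.3.3 (filterByExpr, TMM scaling, quasi-likelihood test, Benjamini-Hochberg adjustment over all genes tested, threshold 0.05). Arm differences were fitted over 8 libraries with time and replicate as covariates (4 residual degrees of freedom), per time likewise (3), and against other times over 28 libraries (11). The replicate number marks a shared lane in the labels, and deviations of same-numbered libraries correlated at r = 0.372 at 3 h and 0.441 at 6 h. Replicates differed well beyond counting noise (chi-square per gene 34.5 to 47.3). CPM are TMM-scaled. Gene counts ran from 13.0 M to 22.9 M per library.

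The code was tested on simulated counts with 200 changed genes among the 13937: of 66 genes changed 2-fold, 80.3% were recovered for 3 and 6 h together and 36.4% for 6 h minus 3 h, and 11 of the 107 calls for 3 and 6 h together were false. Alternatives were RLE and ERCC scaling, no filter, no replicate term, pair blocks, DESeq2 1.42.0, a joint fit and leaving out each library. By rule, MYCN and its network were named, with up to 4 members of each of 42 lists by adjusted p. So were the 12 highest and 12 lowest changes with the same sign in 4 of 4 pairs and a mean log2 CPM of at least 3. The 5 highest and 5 lowest differences between times were named as well. Other genes are marked, belong to the promoter set or are further list members. These further members (MCM4, MCM7, ORC1, ORC4, RRM1, TYMS, ATG9A, NEFL, NEFM and PAOX) were printed outside the rules, after their values were seen. Some genes and 1 list are not reported here. Members and lists were chosen with earlier results of these data known. Figures used matplotlib 3.10.9 in Python 3.11.15.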

Additional observations from a re-analysis of the deposited data

Results flagged for a closer look

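The arm difference in S phase differed from that at other times for 14 genes named by rule, each by a test of the difference itself in the fit of 28 libraries (edgeR, quasi-likelihood, Benjamini-Hochberg). Against 0 h, CHRM1 differed by -1.17 (adjusted p = 0.0394) and SUN2 by -0.80 (adjusted p = 0.0394); neither call held without any one replicate 2 library at 3 or 6 h. Against 8 and 10 h, HIST2H2AB differed by -0.80 (adjusted p = 0.0174) and H2AFX by -0.75 (adjusted p = 0.00928); neither call held without TetP_3h_rep2 or TetP_6h_rep2. Against 12 and 14 h, CCNE2 differed by 1.29 (adjusted p = 0.000153), DTL by 1.25 (adjusted p = 4.13e-07), ZNF367 by 1.24 (adjusted p = 1.49e-05), CCNE1 by 0.98 (adjusted p = 0.000746) and WDR76 by 0.88 (adjusted p = 2.46e-05). In the other direction, TNFAIP8L1 differed by -1.50 (adjusted p = 0.000373), PIF1 by -1.23 (adjusted p = 0.00334), PLXNA2 by -0.97 (adjusted p = 0.00783), UBE2C by -0.97 (adjusted p = 0.000254) and PSRC1 by -0.93 (adjusted p = 0.00797). These 10 calls held without any single library at 3 or 6 h, and all but that of ZNF367 ended without the replicate terms. All 14 calls ended with ERCC scaling.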

How the results depend on the processing

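No result changed direction with a call under any alternative. RLE scaling left 2609 genes past the threshold at 3 and 6 h and kept the count of each other comparison within 1.5 times. Among the lists it moved polyamine genes that rose from 1 to 0 and neuronal genes that fell from 1 to 2. Without the replicate block, 839 genes passed at 3 and 6 h, 0 at 3 h, 0 at 6 h, 0 for 3 and 6 h minus 0 h, 0 minus 8 and 10 h and 1 minus 12 and 14 h, and MYCN was at -0.32 (adjusted p = 0.0963). With ERCC scaling 0 genes passed in each of these comparisons (274, 18, 422, 24, 115 and 27 at an unadjusted p under 0.05), the median of all genes was 0.27 at 3 and 6 h, -0.14 at 3 h and 0.67 at 6 h, and MYCN was at -0.033 (adjusted p = 1). The ERCC share of counts varied between libraries of 1 arm, and the cause was not tested. With 28 libraries fitted together 4761 genes passed at 3 and 6 h (2583 of them among the 2592), 1828 at 3 h and 3304 at 6 h. With a replicate block within each time MYCN was at -0.32 (adjusted p = 0.0784) and 2033 genes passed; lower genes then numbered 3 for mitosis, 4 for cytosolic ribosomal proteins and 2 each for origin firing, E2F and RB, and immediate early genes. DESeq2 called 491 genes at 3 h, and with no filter on low counts 514 passed at 3 h, 5 minus 0 h and 20 minus 8 and 10 h; the cause was not tested. Leaving out 1 library gave 1237 to 2580 genes at 3 and 6 h, 0 to 284 at 3 h, 1 to 1433 at 6 h, 0 to 237 minus 0 h, 0 to 46 minus 8 and 10 h, 56 to 578 minus 12 and 14 h and 0 for 6 h minus 3 h, and MYCN at -0.38 to -0.29 (adjusted p 0.0391 to 0.165). Of 166 named or printed genes called at 3 and 6 h, 58 lost the call without the replicate block, 15 with blocks within each time, 4 with DESeq2, 2 with no filter, 1 with RLE scaling, 166 with ERCC scaling and 12 to 39 without 1 library, and 0 turned round. Of 67 simulated 1.25-fold changes at 3 and 6 h 7.46% were recovered, and of 67 1.5-fold changes 56.7%.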
